A study of Mus musculus with 2 samples.

Results

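Mural cells wrap the walls of blood vessels, as smooth muscle cells on arteries and arterioles and as pericytes on capillaries. They were followed here in Drop-seq profiles, which count the 3' ends of transcripts by unique molecular identifiers (UMIs), of the mouse arcuate nucleus and median eminence. A barcode with 300 or more detected genes was taken as mural if at least 3 of the 9 genes Rgs5, Kcnj8, Abcc9, Vtn, Pdgfrb, Acta2, Tagln, Myl9 and Higd1b were above 0. It could hold at most 2 of the 5 fibroblast genes Dcn, Lum, Col1a1, Col3a1 and Slc6a13 and at most 1 of the 3 endothelial genes Cldn5, Flt1 and Pecam1. The rule found 131 mural barcodes among 4659, of which 75 came from 2343 WT barcodes and 56 from 2316 Irx5KO barcodes. The WT library pooled tissue from 7 wildtype mice, and the Irx5KO library pooled tissue from 6 Irx5-/- mice, which lack the homeobox transcription factor gene Irx5. All mice were of the CD-1 strain, aged 7 to 8 weeks, and dissociated live cells were sorted before capture. With 1 pooled library per genotype, a difference between genotypes and a difference between libraries cannot be told apart, no test was possible, and every interval below is a 95% interval for counting error only.

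Smooth muscle cells contract through smooth muscle actin and myosin, and in doing so they set the width of arterioles and so the flow of blood. Pericytes share a basement membrane with the endothelium, hold less contractile protein, and are recruited through the platelet-derived growth factor receptor encoded by Pdgfrb. In the median eminence the capillaries are fenestrated, so that hypothalamic hormones pass into the portal blood and circulating signals reach the arcuate nucleus.

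The mural barcodes held 84885 UMIs in WT and 64080 in Irx5KO, with medians of 1052 and 900.5 UMIs per barcode. They were shallower than the libraries as a whole, whose medians were 1299 and 1461 UMIs. Irx5, the targeted gene, had 16 UMIs among the other WT barcodes and 0 among the other Irx5KO barcodes. In mural barcodes neither Irx5 nor its neighbour and relative Irx3 had a UMI in either library, which allows levels up to 35.3 CPM in WT and 46.8 CPM in Irx5KO, from a limit of 3 counts. CPM are the UMIs of a gene scaled to the same total of UMIs in every set (1000000). Many barcodes of each library shared their first 11 of 12 bases with another barcode, 271 in WT and 347 in Irx5KO, and 1 Irx5KO mural barcode and 0 WT mural barcodes were among them. The libraries shared 1 barcode sequence, and none of the mural barcodes.

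The 9 selection genes were seen in combination rather than as a full set. Among WT mural barcodes 22 held 3 of the 9, 11 held 4, 22 held 5, 18 held 6 and 2 held 7. Among Irx5KO mural barcodes the numbers were 14, 16, 17, 3 and 6. None held 8 or 9. Rgs5, a regulator of G protein signalling and a widely used mural marker, was seen in 62 of 75 WT and 48 of 56 Irx5KO mural barcodes. Myl9, a regulatory light chain of smooth muscle myosin, was seen in 71 and 49, Acta2, smooth muscle actin, in 60 and 37, and Tagln, the actin-binding protein transgelin, in 60 and 35. The potassium channel genes Kcnj8 and Abcc9, whose products form the ATP-sensitive channel of brain pericytes, were rare: Kcnj8 was seen in 2 and 10 barcodes and Abcc9 in 3 and 4. In neuron barcodes, defined by at least 3 genes of a neuron list and with median depths of 1812 and 2215 UMIs, Rgs5 was seen in 1.69% in WT and 1.29% in Irx5KO and Acta2 in 1.69% and 2.02%. The corresponding shares in mural barcodes were 82.7% and 85.7% for Rgs5 and 80.0% and 66.1% for Acta2. Both are selection genes, and the neuron barcodes were taken from outside the mural set. A part of this gap is therefore fixed by the selection, and it is no support for the label.

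Just outside the threshold lay 19 WT and 15 Irx5KO barcodes with 2 of the 9 genes and no excess of fibroblast or endothelial genes. Myh11, the smooth muscle myosin heavy chain, which the rule did not use, had 0 CPM in these WT barcodes and 18.4 CPM in the Irx5KO ones. Barcodes just inside, with 3 of the 9 genes, had 2494 and 1237 CPM of Myh11. Those outside were deeper, with medians of 1998 and 3233 UMIs against 717.5 and 613 UMIs just inside, and held more of the neuron list, at 3635 and 5209 CPM against 883.1 and 1979 CPM. The summed level of the 31 genes of a contractile list was 2520 and 2190 CPM just outside and 36468 and 20775 CPM just inside. The fibroblast limit excluded 1 WT and 3 Irx5KO barcodes that had 3 or more mural genes, and the endothelial limit excluded 0 in each library.

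The markers of the label were present. Levels below are CPM of UMIs summed over a set of barcodes, and are compared between sets, not between genes. Of the 467 genes with 50 or more UMIs in mural barcodes, 149 (31.9%) were at least 2-fold higher there than in all other barcodes in both libraries. All 20 measured genes of the contractile list and all 6 measured genes of a pericyte list were among them, of 31 and 32 listed. A listed gene was measured only with 50 or more UMIs in mural barcodes. That filter favours genes that are high there, so these counts are no support for the label. Because the cells were chosen by their own transcripts, these are descriptions of the set. The contractile list reached 45591 CPM in WT and 42041 CPM in Irx5KO mural barcodes against 1599 and 1291 CPM elsewhere. The pericyte list reached 13171 and 13311 CPM against 550.3 and 580.0 CPM elsewhere. It was less far apart from the other sets of the vessel wall, which are defined below. The pericyte list had 5448 and 7231 CPM in fibroblast barcodes and 3865 and 4928 CPM in endothelial barcodes. The contractile list had 3369 and 3637 CPM in fibroblast barcodes and 4637 and 4218 CPM in endothelial barcodes. The endothelial selection genes Cldn5, Flt1 and Pecam1 had 0 UMIs in every mural barcode of both libraries. Of the 5 fibroblast selection genes, the collagen-binding proteoglycan gene Dcn had 28 and 16 UMIs, Col3a1 9 and 2, Col1a1 2 and 2, Lum 1 and 0 and the transporter gene Slc6a13 0 in both, a sum of 471.2 and 312.1 CPM against 38222 and 28221 CPM in fibroblast barcodes. Both sets were defined by these 5 genes, so the selection fixes this contrast. A vascular fibroblast list of 13 genes outside the rule had 777.5 and 936.3 CPM in mural barcodes. In fibroblast barcodes that list had 19807 and 20440 CPM.

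Of the 15 genes outside the selection with the highest ratios to other barcodes, 11 were on the contractile list and 2 on the pericyte list. Among all 467 measured genes 20 were on the contractile list and 6 on the pericyte list. The ranking took genes with 50 or more UMIs in mural barcodes, which were chosen in part by Acta2, Tagln and Myl9. It is a description of the set. Pln, phospholamban, a regulator of the calcium pump of muscle, had 1178 CPM in WT and 811.5 CPM in Irx5KO mural barcodes against 0.244 and 0.781 CPM elsewhere. Myh11 had 3534 and 4057 CPM against 3.42 and 1.17 CPM elsewhere. Olfr558, an odorant receptor gene, had 930.7 and 686.6 CPM, and its UMIs elsewhere numbered 0 in WT and 3 in Irx5KO. Mustn1, a small nuclear protein gene of muscle and skeletal tissue, had 1096 and 1014 CPM against 1.95 and 0.976 CPM. Ndufa4l2, a mitochondrial protein gene of pericytes, had 1001 and 827.1 CPM against 1.22 and 3.12 CPM. Aspn, the matrix protein asporin, Tpm2, a tropomyosin, Mylk, the kinase that activates smooth muscle myosin, Lmod1, an actin filament nucleator, Filip1l, Crip1, Cald1, Map3k7cl, Tinagl1 and the long noncoding RNA Gm13861 made up the rest of the 15.

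Igfbp7, a secreted binding protein of the vessel wall, was shared with other sets of the vessel wall: it had 4983 and 5056 CPM in mural barcodes, 3333 and 4714 CPM in fibroblast barcodes and 2811 and 4351 CPM in endothelial barcodes. Notch3, the receptor that marks mural cells among the Notch family, had 259.2 and 249.7 CPM in mural barcodes and at most 7.17 CPM in fibroblast and 0 CPM in endothelial barcodes. Fibroblast barcodes here had 3 or more of the 5 fibroblast genes (104 WT and 122 Irx5KO barcodes), and endothelial barcodes had 2 or more of the 3 endothelial genes (28 and 17 barcodes).

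**Figure D1:**
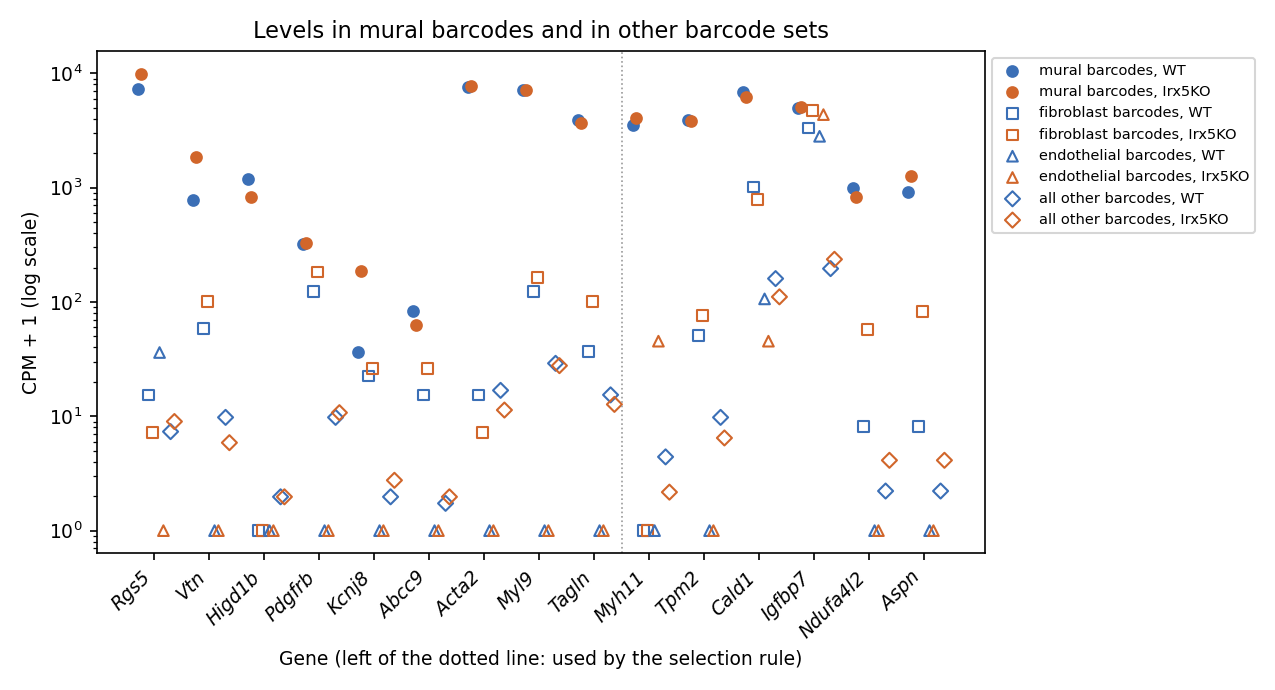
Level of 15 genes, as CPM + 1 on a log axis, in mural, fibroblast, endothelial and all other barcodes of the WT (blue) and Irx5KO (orange) libraries; each point is 1 summed set, and a point at 1 is a set with 0 UMIs. Genes left of the dotted line were used to select the mural barcodes; to its right Myh11 lies at 3534 and 4057 CPM in mural barcodes and at 0 in WT fibroblast and endothelial barcodes, while Igfbp7 lies at 2811 CPM or higher in all 3 vessel-wall sets.

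Smooth muscle genes are classic targets of serum response factor, which binds the CArG box, a motif of CC, 6 bases of A or T, and GG, identical in form on both strands. Promoter windows from 250 bases before to 50 bases after the start site were read from a RefSeq table of build GRCm38.p6, and the stretches that hold such boxes are printed for the selection genes Acta2 and Myl9 and for the leading gene Filip1l, 5′ to 3′ on the gene's strand, with the boxes in capitals. Acta2 is at chr19:34241090-34255590 on the minus strand, Myl9 at chr2:156775420-156781658 on the plus strand, in mm10. The Acta2 stretches lie at chr19:34255438-34255467 and chr19:34255388-34255417, in a window that GENCODE places within the first exon of a longer Acta2 transcript. The Myl9 stretch is chr2:156775283-156775394, upstream of the annotated gene, and the Filip1l stretch is chr16:57549160-57549209, before an internal start of the gene.
Acta2, distal: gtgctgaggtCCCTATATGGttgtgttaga
Acta2, proximal: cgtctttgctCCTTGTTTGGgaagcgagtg
Myl9: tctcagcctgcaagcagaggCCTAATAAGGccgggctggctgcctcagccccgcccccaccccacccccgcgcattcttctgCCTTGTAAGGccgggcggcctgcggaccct
Filip1l: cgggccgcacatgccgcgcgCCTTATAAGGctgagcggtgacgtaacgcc

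The first Myl9 box and the Filip1l box have the full motif, and both Acta2 boxes and the second Myl9 box have 1 core base that is not A or T. The relaxed form was added after the full motif had been searched. The Acta2 boxes begin 84 and 34 bases before the start site, the Myl9 boxes 161 and 99, and the Filip1l box 62. The full box occurs in 1.63% of all 32851 windows of the table and in 1.81% of its genes, and the relaxed form, which includes the full one, in 9.98% of windows and 11.3% of genes. Of the 31 genes of the contractile list 25 had a window. A full box was held by 2 of the 25 (8%), Cnn2 and Myl6, against 1.81% of all genes, a difference that rests on 2 genes. The relaxed form was held by 3 of the 25 (12%), those and Crip1, a share close to that of all genes. Tagln and Myh11 had no window in the table. Of the 9 selection genes 6 had a window, with a full box in Myl9. These matches are descriptions of the sequence.

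Within the 131 barcodes the genes of the contractile apparatus followed the contractile selection genes, while 0 of the 6 measured genes of the pericyte list were 2-fold apart the opposite way in both libraries. That list has 32 genes, and a gene was measured only with 50 or more UMIs over the 131 barcodes. Most of those UMIs lay in the contractile set defined next, so this count says little about pericyte genes that were not measured. A contractile set was defined by at least 2 of Acta2, Tagln and Myl9 above 0, and a noncontractile set by at most 1. The contractile set held 63 of 75 WT mural barcodes, or 84.0% (73.7% to 91.4%, exact Clopper-Pearson), and 39 of 56 Irx5KO mural barcodes, or 69.6% (55.9% to 81.2%). The ratio of Irx5KO to WT shares was 0.829 (0.541 to 1.26). This interval treats both counts as rates, which makes it too wide for shares this large. That it includes 1 therefore does not settle whether the shares differ. All 3 genes were seen in 55 and 33 barcodes and none of the 3 in 2 and 7. The noncontractile barcodes were shallower, with medians of 652 UMIs in WT and 635 UMIs in Irx5KO against 1145 and 1127 UMIs in the contractile set, and the part of depth in the division was not tested beyond the share itself. With each barcode thinned to 500 UMIs the ratio of shares was 0.894 (0.568 to 1.39), with an interval of the same kind.

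The division was not an exclusive one. Acta2 and Rgs5 were seen together in 47 of 75 WT and 29 of 56 Irx5KO mural barcodes, and Rgs5 without Acta2 in 15 and 19. In the contractile set the contractile list made up a median of 5.45% of a barcode's UMIs in each library, with a range of 0.187% to 8.61% in WT and 1.35% to 8.72% in Irx5KO. In the noncontractile set the medians were 0.983% and 1.08%, with highest values of 2.48% and 3.19%, so the sets overlapped. Rgs5 and Vtn together made up a median of 2.23% in WT and 2.53% in Irx5KO noncontractile barcodes, against 0.431% and 0.546% in contractile ones. Both are selection genes, and a noncontractile barcode needed at least 2 of the 6 selection genes outside the contractile ones, so these medians describe the rule and are no support for a pericyte set.

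**Figure D2:**
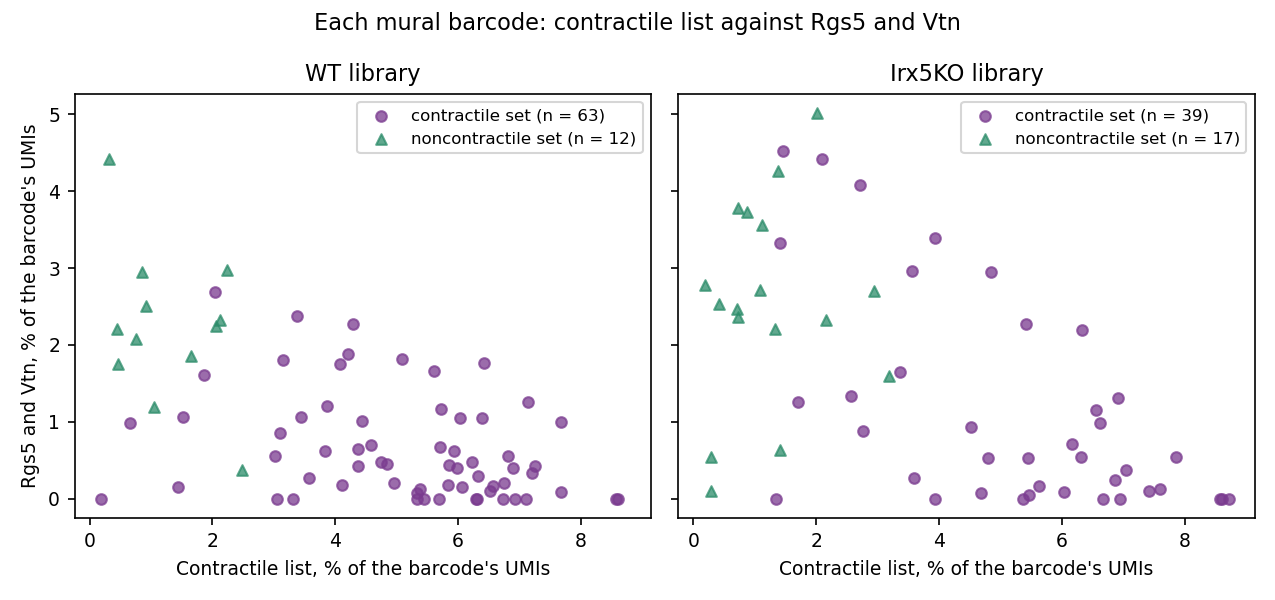
Each point is 1 mural barcode, placed by the share of its UMIs from the contractile list (x axis, percent) and from Rgs5 and Vtn together (y axis, percent), for the WT (left) and Irx5KO (right) libraries. Contractile barcodes (circles) reach 8.61% and 8.72% on the x axis, while noncontractile barcodes (triangles) stay at or below 2.48% and 3.19%, within the range of the lowest contractile ones.

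In both libraries 59 of 467 genes (12.6%), the 3 that define the division included, were at least 2-fold higher in the contractile set and 10 (2.14%) at least 2-fold higher in the noncontractile set, with 10 CPM added to each level. Of the 59, 21 had 0 UMIs in a noncontractile set. The 467 genes were chosen by their UMIs summed over all mural barcodes. Over both libraries the contractile sets held 125033 of the mural UMIs and the noncontractile sets 23932. A gene high in noncontractile barcodes alone was therefore less likely to be measured. A part of the excess of genes on the contractile side, here and below, is fixed by this filter, and its size was not tested. With a count of 0 set at 3 counts and no CPM added, an alternative chosen after the values were seen, 49 genes were on the contractile side, 48 of them among the 59, and 11 on the other. Of the 20 measured genes of the contractile list 17 were on the contractile side and 0 on the other, or 16 with the limit of 3 counts, and the list does not hold Acta2, Tagln and Myl9. Sncg was below 2-fold in both libraries, Tinagl1 in WT alone, at 1.73 against 3.57 in Irx5KO, and Ppp1r14a in Irx5KO alone, at 1.70 against 3.72 in WT. Of the 32 genes of the pericyte list 6 were measured, and 0 of these 6 were 2-fold apart in both libraries on either side. That list summed to 12400 CPM in contractile and 20012 CPM in noncontractile barcodes of WT, and to 13212 and 13627 CPM in Irx5KO. Rgs4, a regulator of G protein signalling, was higher in the contractile set, with 1429 against 814.4 CPM in WT and 1498 against 456.4 CPM in Irx5KO, as was the selection gene Higd1b, with 1206 against 930.8 CPM and 943.7 against 456.4 CPM. The pericyte genes Ndufa4l2 and Cox4i2 were higher in the noncontractile set, at 2094 against 878.2 CPM and 814.4 against 445.7 CPM in WT and at 1304 against 677.0 CPM and 847.6 against 430.8 CPM in Irx5KO.

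Myh11 had 3919 CPM in contractile and 116.3 CPM in noncontractile barcodes of WT, and 5252 and 260.8 CPM in Irx5KO. Crip1, a small LIM domain protein gene, had 10958 against 1280 CPM in WT and 8227 against 391.2 CPM in Irx5KO. Pln had 100 UMIs in the WT and 52 in the Irx5KO contractile set and 0 in both noncontractile sets, which makes it at least 3.76-fold and 5.45-fold higher, against a limit of 3 counts per set. Pde3a, a phosphodiesterase that breaks down cyclic AMP in vascular muscle, had 655.4 and 738.6 CPM in the contractile sets and also 0 UMIs in the noncontractile sets, which makes it at least 1.88-fold and 3.78-fold higher. Lmod1 and Palld, the actin scaffold palladin, had 122 and 59 UMIs in the WT contractile set and 0 in the WT noncontractile set, at least 4.58-fold and 2.22-fold higher, and 62 and 51 UMIs against 1 UMI each in Irx5KO. The LIM protein gene Csrp1 and Perp, Cog7, Rcan2 and Mob2 also had 0 UMIs in both noncontractile sets, and the limit of 3 counts shows them at least 1.58, 1.20, 1.28, 1.24 and 1.09-fold higher in WT, short of 2-fold. Mustn1, with 1 noncontractile UMI in each library, was 10.4-fold and 20.1-fold higher, and was named here after its values were seen. Sparcl1, a secreted matricellular protein, was named after its values were seen: it had 6803 against 1047 CPM in WT and 8555 against 1304 CPM in Irx5KO.

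The noncontractile side held 10 genes, among them genes of secreted proteins. Ptn, the growth factor pleiotrophin, had 3025 CPM in noncontractile and 183.5 CPM in contractile barcodes of WT, 16.5-fold (8.30 to 34.2), and 1695 against 266.7 CPM in Irx5KO, 6.36-fold (3.15 to 13.5). Without barcodes holding 3 or more genes of another cell type, 10 of its 26 Irx5KO noncontractile UMIs were left and the fold was 4.05. Over all mural barcodes Ptn had 471.2 and 608.6 CPM, below the 4624 and 3017 CPM of fibroblast barcodes and the 2126 and 1652 CPM of all other barcodes. Vtn, the adhesive glycoprotein vitronectin and a selection gene, had 3607 against 458.8 CPM in WT, 7.86-fold (4.69 to 13.1), and 4173 against 1128 CPM in Irx5KO, 3.70-fold (2.54 to 5.40). Phlda1, the cytoskeletal gene Sept11, the immediate early gene Egr1, Ndufs7, the class I light chain gene B2m, Hnrnpk and Rplp2 were also on this side. Rgs5 was 3.06-fold (2.54 to 3.68) higher in the noncontractile set of WT, at 18383 against 6003 CPM, and 1.85-fold (1.56 to 2.17) higher in that of Irx5KO, at 15257 against 8268 CPM. A barcode with at most 1 contractile gene needed at least 2 of the other 6 selection genes, so a part of the excess of Rgs5 and Vtn is fixed by the selection.

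Fibroblast transcripts moved with the noncontractile set in both libraries. The 5 fibroblast selection genes summed to 2909 CPM there against 196.6 CPM in the contractile set of WT, and to 847.6 against 143.6 CPM in Irx5KO. Restricting both sets to barcodes without any of these 5 genes was an alternative added after the values were seen, and it left 53 and 6 WT barcodes and 34 and 12 Irx5KO barcodes. In these, Rgs5 had 19185 and 22024 CPM in the noncontractile sets of WT and Irx5KO, Vtn 8693 and 6111 CPM, and Ptn 7794 and 1655 CPM, against 5655 and 8428 CPM, 497.1 and 1371 CPM, and 217.5 and 324.1 CPM in the contractile sets. The count toward the noncontractile side was then 23, of which 7 were among the first 10. Mgp, the matrix Gla protein made by both fibroblasts and smooth muscle, had 5119 CPM in the WT noncontractile set and 599.5 CPM, or 2 UMIs, after the restriction, while in the Irx5KO noncontractile set it went from 3977 to 4838 CPM, against 1820 CPM in the restricted contractile set. A single Irx5KO noncontractile barcode carried 9 of the 12 genes of the neuron list and 31.2% of that set's UMIs. Without barcodes holding 3 or more genes of any of the 9 lists of other cell types, 68 genes were on the contractile and 19 on the noncontractile side, sharing 51 and 8 with the full sets.

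**Figure D3:**
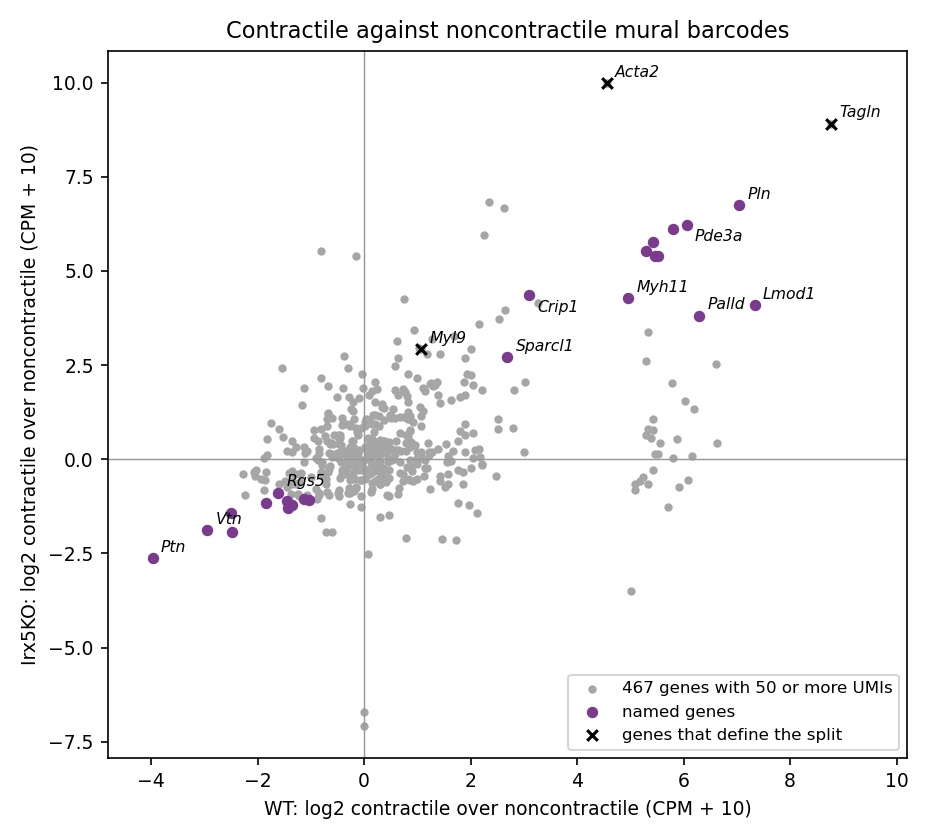
For each of 467 genes, the log2 ratio of contractile to noncontractile mural barcodes in the WT library (x axis) and in the Irx5KO library (y axis), both computed on CPM + 10; a gene with 0 UMIs in 1 set sits at a value set by the added 10 CPM. Genes of the contractile apparatus such as Myh11, Lmod1 and Pln lie high in both libraries, Ptn, Vtn and Rgs5 lie low in both, and crosses mark Acta2, Tagln and Myl9, which define the division.

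Mural barcodes were 3.20% (2.53% to 3.996%) of WT and 2.42% (1.83% to 3.13%) of Irx5KO barcodes, a ratio of 0.755 (0.525 to 1.08) that includes no difference. Among barcodes with fewer than 3 neuron genes, the shares were 4.95% and 4.56% and the ratio 0.920 (0.639 to 1.32). Among mural, fibroblast and endothelial barcodes together, the mural share was 36.2% for WT and 28.7% for the knockout, with a ratio of 0.793 (0.551 to 1.14). The ratio was lower, and its interval no longer included 1, with at least 500 genes per barcode, at 0.649 (0.427 to 0.979), and with every barcode thinned to 1000 UMIs, at 0.541 (0.312 to 0.916), which left 41 WT and 24 Irx5KO mural barcodes. Both alternatives leave out shallow barcodes. Mural barcodes had medians of 1052 UMIs in WT and 900.5 UMIs in Irx5KO, against 1299 and 1461 UMIs in all barcodes. The part of depth in these lower ratios was not tested. Sorting and capture act on these shares in the same measurement, and their part was not tested.

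Between genotypes, 36 of the 467 measured genes (7.71%) were at least 1.5-fold higher in Irx5KO mural barcodes and 72 (15.4%) at least 1.5-fold lower, with a median log2 ratio of -0.06 over all 467. These are counts by size alone, and the interval of the ratio excluded 1 for 21 of the 36 and 51 of the 72. In all other barcodes 7 of the 36 and 18 of the 72 were also 1.5-fold apart in the same direction. The share of all 467 genes that were apart in other barcodes is not given here, so these overlaps cannot be read against a background. Processed pseudogenes and other pseudogenes, whose UMIs cannot be told apart from those of their parent genes with certainty, made up 5 of the 36 (13.9%) and 13 of the 72 (18.1%), against 52 of all 467 (11.1%).

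Of the 20 measured genes of the contractile list 16 differed by less than 1.5-fold between genotypes, 0 were higher and 4 were lower, with a median log2 ratio of -0.12. Over all 467 measured genes 7.71% were higher and 15.4% lower, and with 20 genes these counts do not set the list apart. The level of Acta2 was 7622 CPM in WT against 7756 CPM in Irx5KO, or 1.02 times as high (0.904 to 1.15). Tagln had 3911 and 3652 CPM, a ratio of 0.934 (0.786 to 1.11), and Myl9 had 7186 and 7147 CPM, a ratio of 0.995 (0.879 to 1.12). Myh11 had a ratio of 1.15 (0.969 to 1.36), Tpm1 1.18 (1.03 to 1.36), Myl6 1.37 (1.09 to 1.73) and Cald1 0.914 (0.803 to 1.04). The 4 lower genes were Crip1, at 9978 against 6351 CPM and a ratio of 0.637 (0.564 to 0.717), Sncg, gamma-synuclein, at 1013 against 499.4 CPM and 0.493 (0.318 to 0.748), Actn1, an alpha-actinin, at 0.662 (0.409 to 1.05), and Map3k7cl, at 0.636 (0.374 to 1.05). In other barcodes Crip1 had a ratio of 0.690 and Sncg a ratio of 1.32. In the contractile set alone, compared between genotypes as an alternative added later, the ratio of Crip1 was 0.751 (0.665 to 0.847) and that of Sncg 0.522 (0.324 to 0.815). Actn1 had a ratio of 0.797 (0.487 to 1.28) there and Map3k7cl 0.717 (0.412 to 1.21). Of the 4 only Sncg stayed 1.5-fold lower. Myl6 was at least 1.5-fold higher in that set, at 1.60 (1.26 to 2.02). Intervals also lay above 1 for Tpm1, at 1.36 (1.18 to 1.57), and Myh11, at 1.34 (1.13 to 1.59). The same held for Acta2, at 1.21 (1.07 to 1.36), and Myl9, at 1.19 (1.05 to 1.35). Tagln had 1.10 (0.929 to 1.31) and Cald1 1.02 (0.888 to 1.16). Acta2, Tagln and Myl9 also define the contractile set, so their ratios within it are linked to the membership.

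Vtn, the vitronectin gene, was the selection gene with 50 or more UMIs that was 1.5-fold apart between genotypes. It had 66 UMIs in 25 of 75 WT mural barcodes and 119 UMIs in 26 of 56 Irx5KO ones, at 777.5 and 1857 CPM, a ratio of 2.39 (1.75 to 3.28), against 0.555 in other barcodes. Its ratio was 2.46 (1.58 to 3.87) within the contractile set and 1.16 (0.742 to 1.84) within the noncontractile set. Rgs5 had 7257 and 9941 CPM, a ratio of 1.37 (1.22 to 1.53), with 1.38 (1.20 to 1.58) in the contractile and 0.830 (0.675 to 1.02) in the noncontractile set. Both genes also served to select the barcodes, so their levels and the membership are linked. Higd1b, a pericyte gene of the hypoxia-induced HIG domain family, had 1178 and 827.1 CPM, a ratio of 0.702 (0.493 to 0.989), and Pdgfrb had 318.1 and 327.7 CPM, a ratio of 1.03 (0.554 to 1.89). Kcnj8 had 3 UMIs in 2 WT barcodes and 12 UMIs in 10 Irx5KO barcodes, a ratio of 5.30 (1.43 to 29.3), and after thinning to 500 UMIs it was seen in 2 of 68 and 4 of 52 barcodes. Abcc9 had 7 and 4 UMIs, a ratio of 0.757 (0.162 to 2.98). Of the 6 measured genes of the pericyte list outside the selection, Mfge8, a secreted protein that bridges dying cells to phagocytes, was higher at 1.56 (1.10 to 2.24) and Gm13861 lower at 0.626 (0.377 to 1.02). Their median log2 ratio was -0.05.

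Basement membrane, signalling and vasoactive genes were mostly below 50 UMIs. Of 19 basement membrane genes 3 had 50 UMIs, with ratios from 0.822 for Timp3 to 0.953 for Sparc, and 0 were 1.5-fold apart. Below that number, the type IV collagen genes Col4a1 and Col4a2 and the laminin gene Lamb2 had 16, 19 and 14 UMIs in WT and 28, 27 and 26 in Irx5KO, with ratios of 2.32 (1.21 to 4.59), 1.88 (1.009 to 3.58) and 2.46 (1.24 to 5.10). In other barcodes their ratios were 1.59, 1.55 and 0.939. The 3 were set together after their values were seen, and their sum was 577.3 CPM in WT against 1264 CPM in Irx5KO, 2.19 times as high (1.52 to 3.19). The whole list of 19 genes summed to 5348 and 5727 CPM, a ratio of 1.07 (0.931 to 1.23), and the laminin gene Lama5 had 5 UMIs in WT and 1 in Irx5KO. Of the signalling list 3 of 30 genes were measured and 0 were apart: Hes1, a Notch target, at 0.689 (0.518 to 0.909), Id3, a target of bone morphogenetic protein signalling, at 0.982 (0.646 to 1.48) and Pdgfa, a platelet-derived growth factor, at 0.959 (0.520 to 1.74). The receptor Notch3 had 22 and 16 UMIs, a ratio of 0.963 (0.473 to 1.92). Of the vasoactive list 4 genes were measured and 0 were apart. The nitric oxide receptor subunits Gucy1a3 and Gucy1b3 had ratios of 1.02 (0.683 to 1.52) and 0.936 (0.646 to 1.35), Pde3a 0.954 (0.604 to 1.49) and Gnas, the stimulatory G protein subunit, 1.35 (1.06 to 1.72).

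Among other genes named by size and interval, Mgp was higher at a ratio of 1.51 (1.21 to 1.90), and it was 2.35-fold higher in other barcodes and had 6437 and 17278 CPM in fibroblast barcodes. Hspa1b, an inducible heat shock gene, was higher at 2.22 (1.54 to 3.23), while its near-identical copy Hspa1a had 1.12 (0.967 to 1.30). Summed, because UMIs could be split between them, the pair had a ratio of 1.24 (1.08 to 1.42). The elongation factor gene Eef1a1 was higher at 1.99 (1.41 to 2.82), with 2.02 in other barcodes, and the processed pseudogenes Gm11942 and Gm11836 at 2.36 and 1.84, with 1.97 and 2.33 in other barcodes. The lower genes included the splicing and nuclear genes Acin1, at 0.246 (0.1001 to 0.530), Arglu1, at 0.265 (0.120 to 0.529), and Pnisr, at 0.425 (0.231 to 0.746), whose ratios in other barcodes were 0.755, 0.980 and 0.910. The amino acid transporter gene Slc38a2 was lower at 0.385 (0.206 to 0.682), against 0.568 elsewhere. The ribosomal protein genes Rpl37a and Rps28 were lower at 0.433 and 0.370, against 0.487 and 0.443 elsewhere, while Rps21 was higher at 1.71 (1.20 to 2.46). Of 48 measured ribosomal protein genes 8 were lower, 1 was higher and 39 were not apart. They made up 11.1% of the lower and 2.78% of the higher genes, against 10.3% of all 467, so their share of the lower genes was near that of all. The pseudogene Gm10263 was lower at 0.0764, against 0.183 elsewhere.

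**Figure D4:**
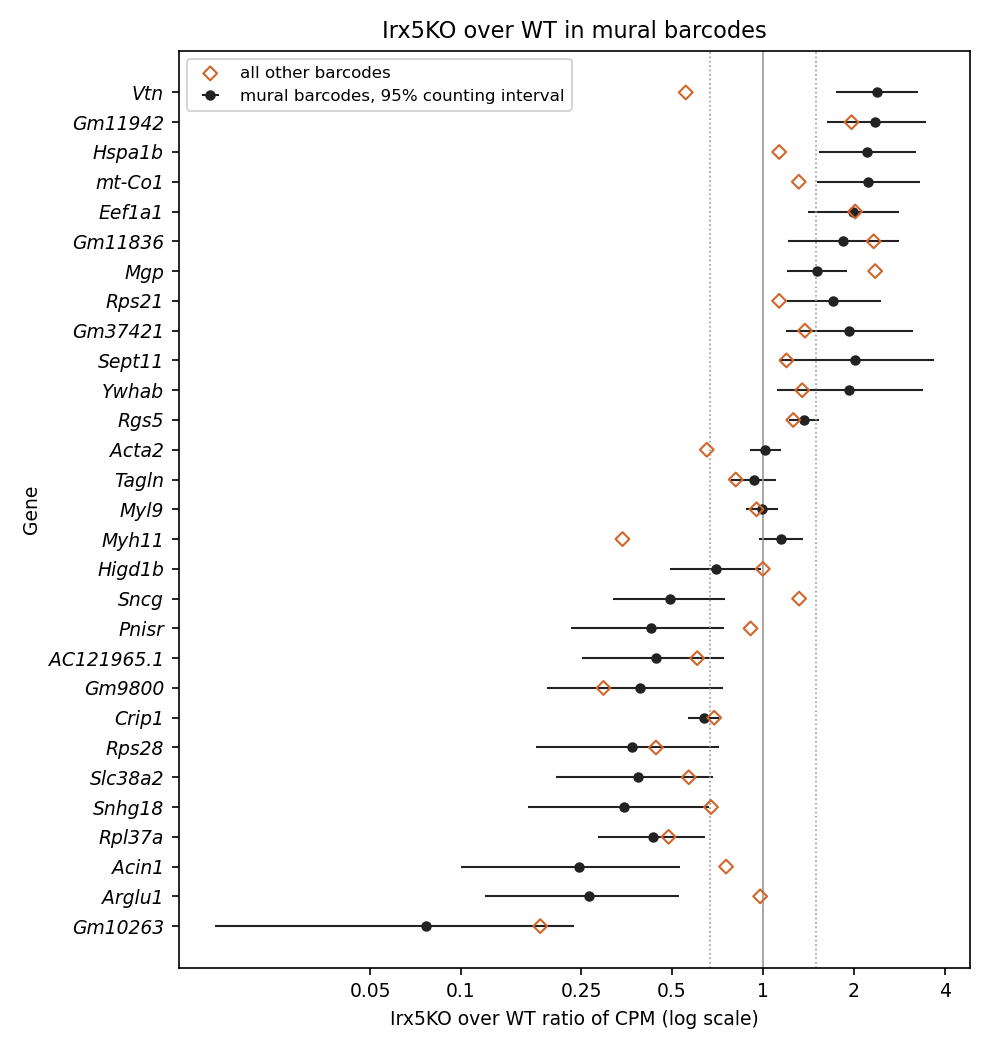
Irx5KO over WT ratio of CPM on a log axis for reported genes named by size and interval, with Rgs5, Acta2, Tagln, Myl9, Myh11 and Higd1b between them; black points with bars are mural barcodes with the 95% counting interval, open diamonds are all other barcodes, and dotted lines mark 1.5-fold. Acta2, Tagln and Myl9 lie at 1.02, 0.934 and 0.995, Vtn lies at 2.39 with 0.555 in other barcodes, and Eef1a1 and Rpl37a lie close to their value in other barcodes.

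Transcripts of other cell types were present at low levels. Among 9 lists of other cell types, at least 3 genes of a list were seen in 7 of 75 WT mural barcodes and 5 of 56 Irx5KO ones, the lists being neuron in 1 and 4, ependymal in 2 and 0, oligodendrocyte in 2 and 2, and the vascular fibroblast list in 2 and 0. An astrocyte list, not among the 9, had 3 or more genes in 1 WT and 2 Irx5KO mural barcodes, of which the 2 were not among those counted. No doublet caller was run. The neuron list stood at 1308 and 1498 CPM against 9754 and 11460.1 CPM in other barcodes, the microglia list at 106.0 and 46.8 CPM with 8 of its 12 genes at 0 in both libraries, and the endothelial list at 365.2 and 421.3 CPM with 8 of 14 genes at 0, against 349.0 and 260.5 CPM in other barcodes. Of the endothelial list Esam, an adhesion molecule gene, held most, with 23 UMIs in each library. Ogn, the fibroblast matrix gene osteoglycin, had 29 and 34 UMIs, or 341.6 and 530.6 CPM, against 810.0 and 644.8 CPM in fibroblast barcodes. The neuropeptide gene Npy had 0 UMIs in WT and 185 in Irx5KO mural barcodes, and 96.8% of the latter lay in the barcode with 9 neuron genes, which also held 63 of the 64 UMIs of Agrp. That barcode had 17 UMIs of Rgs5 and 9 of Vtn. The heat shock list had a median log2 ratio of 0.12 over 8 measured genes with 1 higher and 0 lower, and the immediate early list 0.11 over 13 genes with 1 higher, Ier2, and 1 lower, Atf3. Mitochondrially encoded transcripts made up a median of 2.36% and 2.24% of the UMIs of a mural barcode.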

How the data were processed

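Drop-seq libraries of arcuate nucleus and median eminence cells were analysed, 1 pooled library per genotype, grouped by the genotype labels. Build mm10 and the tools STAR 2.6.0b, Seurat 3, Picard and bcl2fastq are named in the submitters' processing notes. The sources used here do not give the role of each. For the WT library the authors deposited UMI counts. The Irx5KO and merged tables were deposited as natural log values, each the ln of a barcode's count per 10000 UMIs with 1 added, judging by the values. The design had assumed counts. Inverting the merged table gave whole numbers for 100% of values within 1e-06, and 0 UMIs differed from the WT counts. Of the raw WT barcodes with 300 or more genes, 60 were absent from the merged table, and 0 of them met the mural rule.

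UMIs were summed over barcodes of a set and scaled to CPM. Ratios have exact conditional binomial intervals and shares have exact Clopper-Pearson intervals, all at 95% and for counting error only, and a count of 0 was set against 3 counts (10 CPM were added to both levels where sets were ranked or counted). The intervals of ratios treat counts as rates, which makes them too wide for ratios of large shares. Genes with at least 50 UMIs in mural barcodes were measured, and at least 1.5-fold apart was counted between genotypes, 2-fold between sets. With 1 library per genotype no test was made. The calculation was tested on simulated counts. Barcodes sharing their first 11 bases were not merged in the main analysis.

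Named genes were the selection genes, the genes with most UMIs (up to 8) or 1.5-fold apart of 5 vascular lists, up to 15 leading genes, up to 12 per direction between genotypes (seen in at least 10 barcodes, at most 20% of UMIs in 1) ranked by interval bound, up to 10 per direction of the contractile division, Irx5 and Irx3, and the top 2 of other lists, of which a part is described. The mural rule, the lists and the tests were chosen with earlier results of these data known. Promoter windows are from RefSeq (GRCm38.p6) and gene positions from GENCODE vM21 (mm10). Alternatives covered the thresholds of the rule, mixed barcodes, depth, scaling and low counts. Python 3.11.15, numpy 2.4.6, scipy 1.17.1, pandas 2.3.3 and matplotlib 3.10.9 were used. Some results are not reported here.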

Additional observations from a re-analysis of the deposited data

How the results depend on the processing

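The ratio of mural shares stayed between 0.541 and 0.802 over 9 alternatives, of which 2 (merged barcode families and thinning to 500 UMIs) were added after the values were seen, and the ratio of contractile shares between 0.823 and 0.940. The count of genes at least 1.5-fold higher, 36 of 467, became 14 with barcodes thinned to 1000 UMIs, 234 of 1541 with a minimum of 20 UMIs per gene and 11 of 154 with a minimum of 100. The count of lower genes, 72, became 44 with at least 4 of the 9 mural genes, 23 after thinning, 307 with the minimum of 20 UMIs and 12 with that of 100. These alternatives also change how many genes are measured. The higher share of genes apart was 33.3%, and 30.4% with median-of-ratios scaling. The log2 ratio of Actn1 went from -0.59 to 0.0021 after thinning, that of Angpt1 from -0.87 to 0.050 without any endothelial or fibroblast gene, and that of Snhg11 from 0.61 to -0.31 in the contractile set alone. That of Mt1 went from 0.78 to -0.70 with at least 4 mural genes, -0.82 without any endothelial or fibroblast gene and -0.61 after thinning. The cause was not tested. The median log2 ratios of 8 gene lists moved by less than 1.5-fold in all 96 comparisons run, though the sign changed in some for each list other than the heat shock and mitochondrial ones, with -0.23 to 0.069 for the contractile and -0.14 to 0.16 for the pericyte list.

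Both libraries are single, so leaving out a replicate was not possible. No paired analysis was possible because each genotype has 1 library. At these depths a gene of 50 UMIs has an interval that often spans 1.5-fold, and genes under 50 UMIs, among them most signalling and basement membrane genes, could not be placed.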

Other observations

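For some genes the ratio between genotypes varied with the barcodes kept. Their names were chosen after their values were seen. Dbi, the acyl-CoA binding protein gene, had 76 UMIs in 22 WT mural barcodes and 11 in 10 Irx5KO ones, a ratio of 0.192 (0.0918 to 0.363), and its log2 ratio of -2.38 was -0.91 without barcodes holding 3 or more genes of another cell type. Igfbp5, a secreted binding protein gene, had 24 UMIs in 14 WT and 62 in 14 Irx5KO mural barcodes, a ratio of 3.42 (2.11 to 5.73), and its log2 ratio of 1.77 was 0.54 with at least 4 of the 9 mural genes. The metallothionein gene Mt1 had 30 UMIs in 14 WT and 39 UMIs in 6 Irx5KO mural barcodes, 30 of the latter in 1 barcode.

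The pituitary hormone genes Gh and Prl had 0 UMIs in WT mural barcodes and 5 and 4 UMIs in Irx5KO mural barcodes, with 78.0 and 62.4 CPM there against 65.6 and 48.2 CPM in the other Irx5KO barcodes. Haemoglobin ran the other way, with 17 UMIs of Hbb-bs in WT and 1 in Irx5KO mural barcodes. The part of free RNA in these values was not tested.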
